A study of Arabidopsis thaliana with 24 samples.

Results

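The camalexin and indole defence genes described here are 10 Arabidopsis loci, chosen by name from 32833 loci counted in 24 root libraries: CYP71A12, CYP71A13, PAD3, CYP79B2, CYP79B3, CYP82C2, CYP82C4, FOX1, WRKY33 and MYB51. The choice rested on measured values, since CYP71A12 and CYP71A13 stood out in amiR-TOR against Col-0 on NPA without estradiol. That comparison, and the comparisons that share its libraries, are therefore given as descriptions with no test. Tests are given for the comparisons whose groups hold none of those 6 libraries. The genes, the gene lists used below and the tests were still chosen with earlier results of these data known. The tests are thus not independent of that choice. The filter, the scaling and the estimates of spread behind those tests came from all 24 libraries, those 6 included.

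Libraries of amiR-TOR, a line with an estradiol-inducible artificial microRNA against TOR driven through UB10pro, were set against libraries of the wild type Col-0. TOR is a protein kinase that couples nutrient status to growth, NPA is an inhibitor of auxin transport, and IAA, the natural auxin, starts lateral root formation. In each genotype there were 4 groups of 3 libraries: IAA with estradiol, IAA with the solvent DMSO, NPA with estradiol, and NPA with DMSO. Seedlings aged 7 d first spent 24 h on 10 µM NPA, then stayed on NPA for a further 24 h while also given 10 µM estradiol or DMSO, and were harvested 6 h after a move to 10 µM IAA or without a move. All groups had thus received NPA, and each library pooled about 200 segments from the lower part of the root. Only the IAA groups were moved, so an effect of IAA cannot be told apart from that of the move. Both are meant where the text below names an effect of IAA over NPA. The labels do not say whether replicates came from separate cultures, so the p-values measure the spread between these libraries, which may be technical. They also do not say how many independent transgenic lines amiR-TOR stands for. In pooled tissue, fewer cells expressing a gene and less RNA per cell cannot be told apart.

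Camalexin is the sulfur-containing indole phytoalexin of Arabidopsis, made from tryptophan when the plant detects a pathogen or certain stresses. CYP79B2 and CYP79B3 convert tryptophan to indole-3-acetaldoxime, the branch point for camalexin, for indole glucosinolates and for a 4-hydroxyindole carbonyl nitrile that also serves defence. CYP71A13 and CYP71A12 dehydrate the oxime to the nitrile, and PAD3 closes the camalexin ring. FOX1, a flavin-dependent oxidase, and CYP82C2, a hydroxylase, act in the carbonyl nitrile branch. WRKY33 and MYB51 are transcription factors of camalexin and of indole glucosinolate genes. CYP82C4, the close relative of CYP82C2, acts in the coumarin pathway of iron-starved roots.

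Upstream sequence is shown for the genes with the largest differences between the genotypes, and for CYP82C4, which lies close to CYP82C2 on chromosome 4 and behaved differently. The sequences run 5′ to 3′ on the coding strand and come from RefSeq assembly TAIR10.1. Capitals mark TTGAC or its reverse complement GTCAA, the core of the W-box that WRKY proteins bind.
CYP71A12: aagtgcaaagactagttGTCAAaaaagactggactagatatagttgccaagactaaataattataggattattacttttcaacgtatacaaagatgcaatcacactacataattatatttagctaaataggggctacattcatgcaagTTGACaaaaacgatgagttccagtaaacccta
CYP71A13: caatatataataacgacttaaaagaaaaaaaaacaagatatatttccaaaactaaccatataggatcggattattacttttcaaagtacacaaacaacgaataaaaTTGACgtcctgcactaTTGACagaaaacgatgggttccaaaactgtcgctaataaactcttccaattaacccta
CYP82C2: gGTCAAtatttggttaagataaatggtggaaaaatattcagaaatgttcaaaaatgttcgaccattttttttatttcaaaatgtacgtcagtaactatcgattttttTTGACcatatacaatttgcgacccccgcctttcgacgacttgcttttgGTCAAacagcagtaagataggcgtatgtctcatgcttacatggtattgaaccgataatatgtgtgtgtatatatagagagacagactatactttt
CYP82C4: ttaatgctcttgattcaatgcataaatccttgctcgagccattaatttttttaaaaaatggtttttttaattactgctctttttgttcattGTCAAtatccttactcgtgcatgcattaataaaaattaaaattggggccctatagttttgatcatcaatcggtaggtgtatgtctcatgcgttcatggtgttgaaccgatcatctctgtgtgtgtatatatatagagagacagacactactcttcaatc
FOX1: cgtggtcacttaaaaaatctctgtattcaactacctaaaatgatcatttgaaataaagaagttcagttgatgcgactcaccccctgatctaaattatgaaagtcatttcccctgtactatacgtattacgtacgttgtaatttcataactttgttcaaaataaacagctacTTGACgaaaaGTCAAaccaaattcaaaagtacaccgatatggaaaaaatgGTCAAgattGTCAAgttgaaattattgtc
The runs lie at chr2:13101442-13101621 (minus strand), chr2:13112059-13112238 (minus strand), chr4:15462100-15462349 (plus strand), chr4:15451738-15451987 (plus strand) and chr1:9128569-9128818 (minus strand). For CYP82C2, CYP82C4 and FOX1 they are the 250 bases before the annotated start. For CYP71A12 and CYP71A13, whose annotation begins at the coding sequence, only the first 180 of those 250 bases are shown.

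Counted on both strands in the 250 bases, TTGAC occurred 4 times before FOX1, 3 times before CYP82C2, 2 times each before CYP71A12, CYP71A13, WRKY33 and MYB51, and 1 time before CYP82C4. PAD3, CYP79B2 and CYP79B3 held none in this window. Of 27443 protein-coding genes, 44.9% held at least 1 and 14.1% held 2 or more. The longer form TTGACC, each of which is also counted as TTGAC, occurred before CYP82C2, FOX1 and WRKY33, against 12.2% of all promoters. The other longer form, TTGACT, occurred before FOX1 and WRKY33, 2 of the 10 genes, near the 19.1% of all promoters. The auxin response element TGTCTC occurred before CYP82C2, CYP82C4 and WRKY33, against 10.9% of all promoters, and the G-box CACGTG before none of the 10, against 6.49%. These letter matches are descriptions and show no binding.

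CYP71A12 (AT2G30750, chr2:13099486-13101371) and CYP71A13 (AT2G30770, chr2:13109909-13111988) are neighbours on the minus strand, and their coding sequences were identical at 90.36% of 1494 aligned bases, with a longest identical run of 59 bases. Reads within such runs may have been left out as multimapping, so the split between the pair is uncertain. CYP71A13 also overlaps AT2G30766 on the opposite strand over 572 bases. CYP82C2 (AT4G31970, chr4:15462350-15464563) and CYP82C4 (AT4G31940, chr4:15451988-15454224) were identical at 93.0% of aligned coding bases, and CYP79B2 (AT4G39950, chr4:18525042-18527602) and CYP79B3 (AT2G22330, chr2:9488413-9491404) at 81.19%. PAD3 (AT3G26830) lies at chr3:9887917-9889791, FOX1 (AT1G26380, listed only by its locus in the gene table) at chr1:9126737-9128568 and MYB51 (AT1G18570) at chr1:6389399-6391386. WRKY33 (AT2G38470, chr2:16108235-16110766) overlaps the opposite-strand loci AT2G38480 over 26 bases and AT2G08965 over 272 bases.

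Gene counts per library lay between 8589833 and 40494513. TOR lay between 21.9 and 33.3 CPM (read counts scaled to a common library size) in amiR-TOR libraries with estradiol, and between 46.8 and 80.2 CPM in the libraries of all other groups, so the knock-down was seen with estradiol. Without estradiol on IAA, TOR in amiR-TOR over Col-0 had a log2 fold change of 0.16 ± 0.15 (SE, edgeR quasi-likelihood test, adjusted p = 0.559). The share of unmapped reads exceeded 20% in 5 libraries: 25.75% in amiR-TOR on IAA with estradiol, replicate 1, 35.2% and 31.7% in Col-0 on IAA with estradiol, replicates 2 and 3, 47.6% in Col-0 on IAA, replicate 1, and 34.0% in Col-0 on NPA, replicate 1. The other 19 had between 1.56% and 12.1%. Summed over 8 root markers, levels were 98.7 to 323 CPM, and over 6 shoot markers 8.35 to 151.6 CPM, and both sums differed between groups. The part of these shares and sums in the results below was not tested beyond the fits that leave libraries out.

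In amiR-TOR roots on IAA without estradiol, where TOR itself did not pass the test, 8 of the 10 genes were called higher than in Col-0, and none was lower. A gene was called at a Benjamini-Hochberg adjusted p under 0.05 in the edgeR quasi-likelihood fit, adjusted over 21290 tested loci. By that rule 12.6% of all loci were called in this comparison, and 8.52% were called higher. The exceptions were CYP79B3 and CYP82C4. The median log2 fold change was 2.64 over the 10 genes and -0.01 over all loci. CYP71A13 passed the filter on low counts only through its levels in amiR-TOR. Its difference was thus bound up with being tested at all, here and in the other comparisons of the genotypes. The count was 5 without amiR-TOR replicate 2 and 5 without Col-0 replicate 1. CYP71A12, CYP82C2, FOX1 and WRKY33 were called in every alternative run, each library left out included, while the other 4 calls were lost in at least 1 of them.

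**Figure D1:**
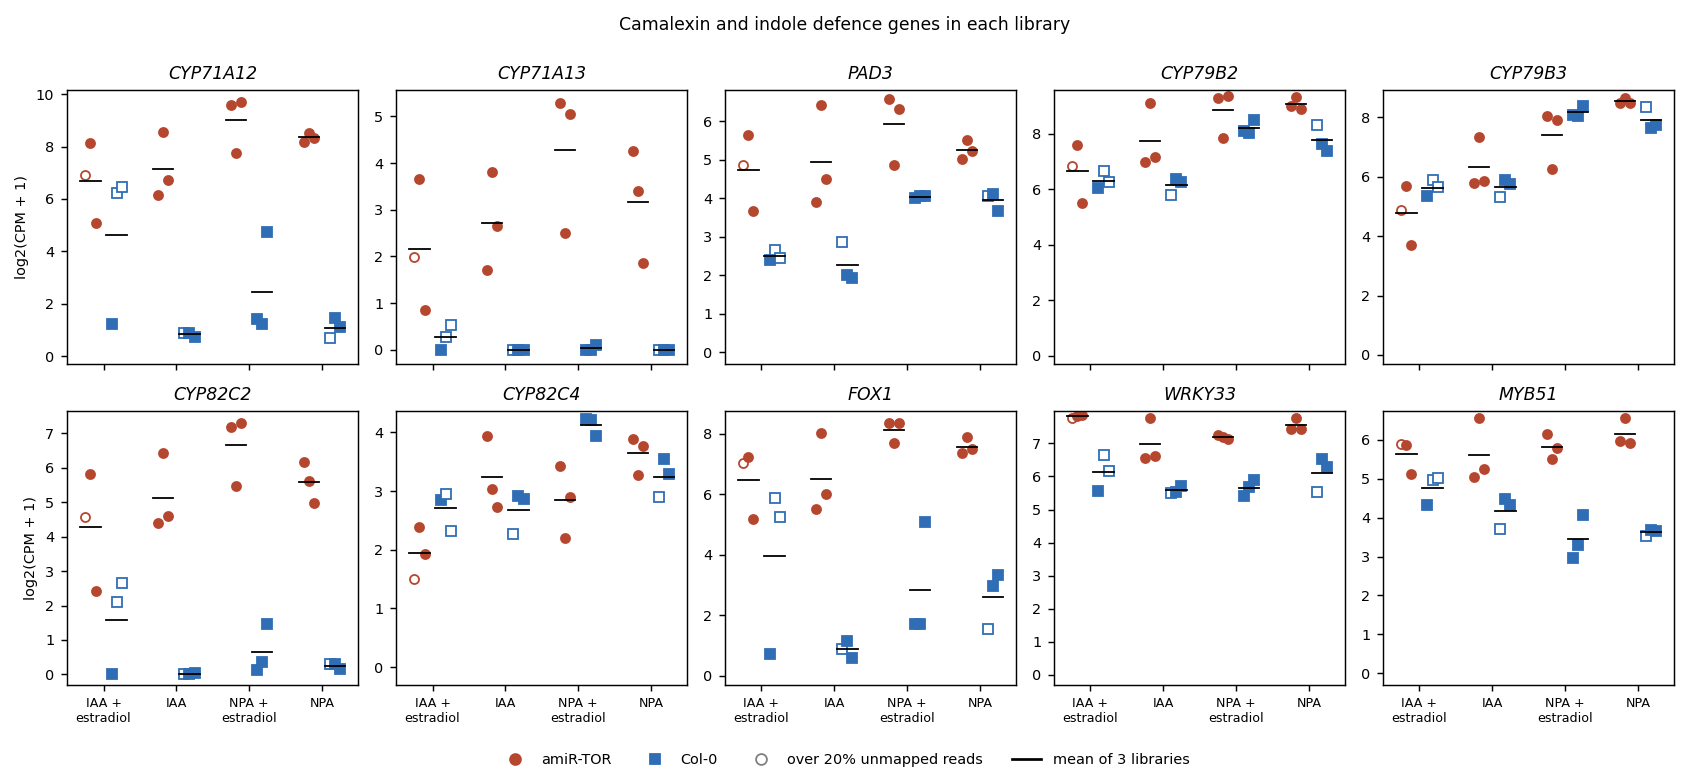
Level of each gene in each library as log2(CPM + 1), with amiR-TOR (circles) left of Col-0 (squares) in each of 4 treatments. Open symbols mark the 5 libraries with over 20% unmapped reads, and black lines the means of 3 libraries. CYP71A12 on IAA lay between 70.3 and 381 CPM in amiR-TOR, and between 0.651 and 0.857 CPM in Col-0.

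CYP71A12 separated the genotypes widely on IAA and on NPA. On IAA it had 70.3, 381 and 104 CPM in amiR-TOR, against 0.829, 0.857 and 0.651 CPM in Col-0. The lowest amiR-TOR library thus lay far above the highest Col-0 library, and the log2 fold change was 7.92 ± 1.65 (adjusted p = 0.00493). On NPA with estradiol it had 763, 214 and 834 CPM in amiR-TOR, against 1.665, 1.33 and 25.6 CPM in Col-0, a log2 fold change of 5.90 ± 1.32 (adjusted p = 0.00273). On IAA with estradiol it had 119.7, 277 and 32.8 CPM in amiR-TOR, against 1.31, 74.8 and 86.4 CPM in Col-0. There the groups overlapped, with Col-0 replicates 2 and 3 high, and the log2 fold change of 1.41 ± 1.09 was not called (adjusted p = 0.329).

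Among the 12 Col-0 libraries, CYP71A12 thus reached 25.6 to 86.4 CPM in 3 libraries that had received estradiol, and stayed at 0.597 to 1.75 CPM in the others, which include 3 with estradiol. Of the 3 high libraries, replicates 2 and 3 on IAA had 35.2% and 31.7% unmapped reads, while replicate 3 on NPA had 3.58%. Replicate 1 of Col-0 on IAA and replicate 1 of Col-0 on NPA had 47.6% and 34.0% unmapped reads, with CYP71A12 at 0.829 and 0.597 CPM.

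CYP71A13 was far less abundant than CYP71A12. Per kilobase of exon, its mean level was 4.59 CPM in amiR-TOR on IAA, where CYP71A12 had 123.7 CPM. On IAA it had 2.27, 12.99 and 5.33 CPM in amiR-TOR, against 0 in each of the 3 Col-0 libraries. The summed counts were 260 in amiR-TOR and 0 in Col-0, so the level was at least 114.9-fold higher, with a floor of 3 counts over the Col-0 group. It was called higher in this comparison (adjusted p = 0.0272), but not without amiR-TOR replicate 2 (adjusted p = 0.081) or without Col-0 replicate 1 (0.0713), 2 (0.0549) or 3 (0.0926). On counts without regard to strand its adjusted p was 0.058, and with the libraries of high unmapped share left out 0.123.

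On NPA with estradiol CYP71A13 had 38.3, 4.63 and 32.2 CPM in amiR-TOR, against 0, 0 and 0.0713 CPM in Col-0. The 1752 and 3 counts gave a ratio of 658 with a 95% counting interval of 224.8 to 3194, and the gene was called (adjusted p = 0.00131). Given IAA with estradiol, it had 2.97, 11.7 and 0.797 CPM in amiR-TOR, against 0, 0.217 and 0.446 CPM in Col-0, and the log2 fold change of 4.67 ± 1.54 was called (adjusted p = 0.0297). That last call was lost without amiR-TOR replicate 2 (3.19, adjusted p = 0.141) or without Col-0 replicate 1 (3.93, 0.107), 2 (4.74, 0.0769) or 3 (5.73, 0.0575), and on counts without regard to strand (4.71, 0.0587). It was lost too with just the groups compared (4.65, 0.0548), with a term marking libraries with many unmapped reads (4.46, 0.0649), and with the 5 libraries of high unmapped share left out (adjusted p = 0.162).

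PAD3, the last enzyme of camalexin synthesis, was called higher in all 3 tested genotype comparisons. Its levels on IAA were 14.0, 84.2 and 21.8 CPM in amiR-TOR, against 6.22, 3.00 and 2.78 CPM in Col-0, a log2 fold change of 3.33 ± 0.68 (adjusted p = 0.00399). Given NPA with estradiol, the levels were 94.2, 28.3 and 78.8 CPM in amiR-TOR, against 15.0, 15.7 and 15.6 CPM in Col-0 (2.12 ± 0.58, adjusted p = 0.01). On IAA with estradiol they were 28.2, 48.9 and 11.7 CPM in amiR-TOR, against 4.31, 5.27 and 4.46 CPM in Col-0 (2.66 ± 0.64, adjusted p = 0.00374). The genotypes did not overlap in any of the 3, and the Col-0 library on NPA in which CYP71A12 was high (replicate 3, with estradiol) stood level with its group for PAD3. Once the 5 libraries of high unmapped share were left out, PAD3 was not called on IAA with estradiol (2.79, adjusted p = 0.114), and with only the groups compared it missed the threshold on IAA (3.33, 0.0539).

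In the carbonyl nitrile branch, CYP82C2 had 19.9, 85.5 and 23.1 CPM in amiR-TOR on IAA, against 0, 0 and 0.0296 CPM in Col-0. The summed counts were 1578 in amiR-TOR and 1 in Col-0, a ratio of 2092 with a 95% counting interval of 375 to 82690, and the gene was called (adjusted p = 0.00196). On NPA with estradiol it had 145.2, 43.6 and 155.5 CPM in amiR-TOR, against 0.101, 0.282 and 1.78 CPM in Col-0 (log2 fold change 6.99 ± 1.14, adjusted p = 0.000216). Given IAA with estradiol, it had 22.9, 55.5 and 4.32 CPM in amiR-TOR, against 0, 3.26 and 5.30 CPM in Col-0 (3.37 ± 1.00, adjusted p = 0.0148). In this last comparison the groups overlapped, and the call was lost without amiR-TOR replicate 2 (2.34, adjusted p = 0.0897) or Col-0 replicate 1 (2.69, 0.0524), and with only the groups compared (3.34, 0.157).

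FOX1 had 44.3, 262 and 63.4 CPM in amiR-TOR on IAA, against 0.829, 1.23 and 0.503 CPM in Col-0 (log2 fold change 7.27 ± 1.55, adjusted p = 0.0057). Given NPA with estradiol, it had 329, 207 and 323 CPM in amiR-TOR, against 2.27, 2.26 and 32.6 CPM in Col-0 (4.46 ± 1.17, adjusted p = 0.00785). When estradiol was given on IAA, levels were 129.0, 150.0 and 35.0 CPM in amiR-TOR, against 0.654, 57.9 and 37.1 CPM in Col-0, and the change of 1.73 ± 1.05 was not called (adjusted p = 0.211). It was called with the 5 libraries of high unmapped share left out (7.12, adjusted p = 0.0433), which leaves 1 Col-0 library in that group, the one at 0.654 CPM. The Col-0 libraries in which FOX1 was high were those in which CYP71A12 was high.

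CYP82C4 did not follow its close relative CYP82C2. It was called lower in amiR-TOR on NPA with estradiol, with 9.80, 3.60 and 6.44 CPM in amiR-TOR, against 17.8, 17.6 and 14.4 CPM in Col-0 (log2 fold change -1.34 ± 0.36, adjusted p = 0.00698). On IAA it had 14.4, 7.22 and 5.63 CPM in amiR-TOR, against 3.80, 6.55 and 6.27 CPM in Col-0 (0.72 ± 0.38, adjusted p = 0.232). On IAA with estradiol the log2 fold change was -0.93 ± 0.39, which edgeR did not call (adjusted p = 0.0652). It was called lower there by DESeq2 (-0.99, adjusted p = 0.0196) and by edgeR with a term marking libraries with many unmapped reads (-1.16, 0.0191). Leaving out amiR-TOR replicate 2 (-1.26, 0.0318) or Col-0 replicate 3 (-1.12, 0.0472) also gave a call.

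The entry enzymes separated less by genotype. On IAA, CYP79B2 had 123.9, 554 and 141.2 CPM in amiR-TOR, against 54.7, 81.1 and 75.9 CPM in Col-0, and it was called higher (log2 fold change 1.94 ± 0.57, adjusted p = 0.0329). Without amiR-TOR replicate 2 the change was 0.91 (adjusted p = 0.295). The call was also lost without Col-0 replicate 1 (1.80, 0.122), 2 (2.06, 0.0631) or 3 (2.00, 0.0849), with just the groups compared (1.95, 0.111) and with the libraries of high unmapped share left out (1.80, 0.168). CYP79B3 had 54.4, 161.6 and 57.4 CPM in amiR-TOR, against 39.0, 58.1 and 52.8 CPM in Col-0, and was not called (0.85 ± 0.49, adjusted p = 0.292). With estradiol, neither CYP79B2 nor CYP79B3 was called between the genotypes on NPA or on IAA.

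The transcription factor WRKY33 differed by a similar amount in each setting. On IAA it had 93.4, 215 and 98.3 CPM in amiR-TOR, against 44.7, 45.1 and 51.3 CPM in Col-0 (log2 fold change 1.52 ± 0.30, adjusted p = 0.00279). On NPA with estradiol it had 152.2, 146.1 and 140.8 CPM in amiR-TOR, against 41.3, 50.2 and 58.7 CPM in Col-0 (1.54 ± 0.30, adjusted p = 0.000643). Given IAA with estradiol, it had 217, 225 and 231 CPM in amiR-TOR, against 46.6, 99.6 and 70.0 CPM in Col-0 (1.64 ± 0.30, adjusted p = 0.000335). The genotypes overlapped in none of them.

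MYB51 had 32.0, 93.8 and 37.1 CPM in amiR-TOR on IAA, against 12.2, 21.2 and 19.1 CPM in Col-0 (log2 fold change 1.60 ± 0.39, adjusted p = 0.0125). This call was lost without amiR-TOR replicate 2 (0.97, adjusted p = 0.0916) or without Col-0 replicate 1 (1.41, 0.0665), with just the groups compared (1.60, 0.0886) and with the libraries of high unmapped share left out (1.40, 0.0999). Given NPA with estradiol, it had 69.8, 44.4 and 54.1 CPM in amiR-TOR, against 6.76, 8.88 and 15.8 CPM in Col-0 (2.39 ± 0.40, adjusted p = 2e-04). On IAA with estradiol it had 58.7, 57.7 and 33.8 CPM in amiR-TOR, against 18.9, 30.2 and 31.4 CPM in Col-0, and was not called (0.90 ± 0.38, adjusted p = 0.0685), though it was with just the groups compared (0.90, 0.0455) or without amiR-TOR replicate 3 (1.12, 0.0435).

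**Figure D2:**
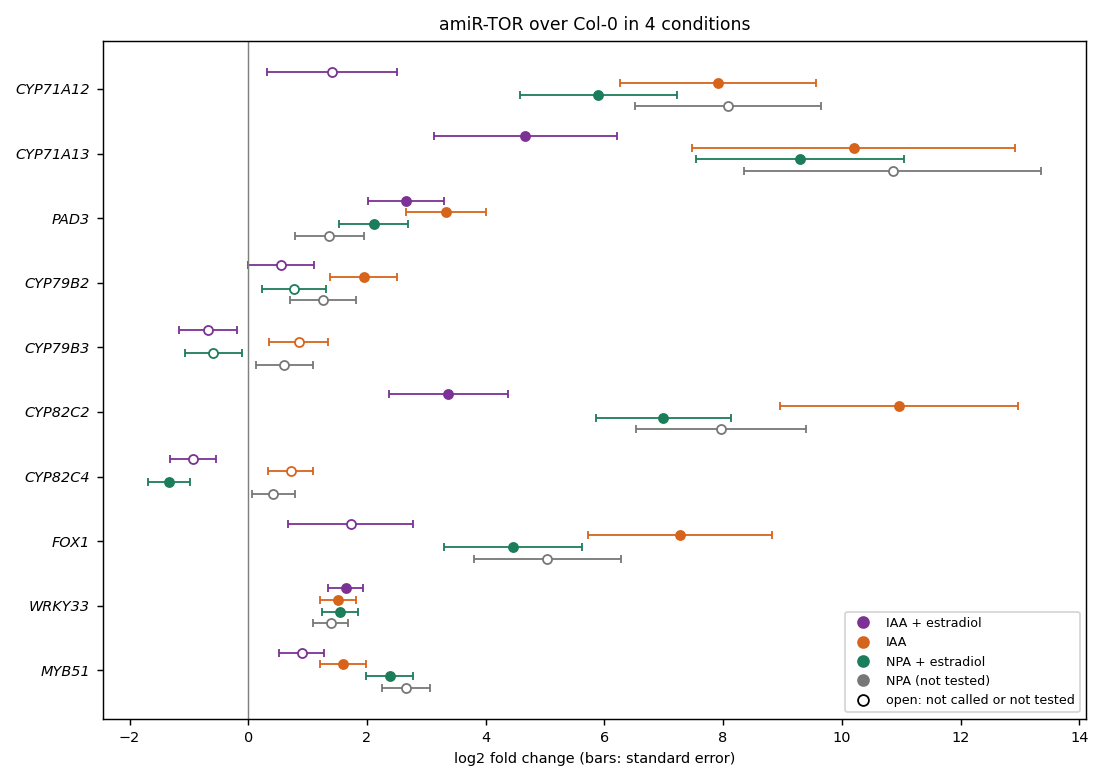
Log2 fold change of amiR-TOR over Col-0 with its standard error for each gene in 4 treatments. Filled points were called, and open points were not called or, on NPA, not tested. Fitted values of CYP71A13 rest on Col-0 groups of 0 to 12 counts, and those of CYP82C2 without estradiol on groups of 1 and 13 counts. These values depend on the prior count of the fit. WRKY33 lay between 1.52 and 1.64 in the tested treatments.

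On NPA with estradiol, 7 of the 10 genes were called higher in amiR-TOR and CYP82C4 was called lower, where 32.8% of all loci were called, 17.6% higher and 15.3% lower. Given IAA with estradiol, CYP71A13, PAD3, CYP82C2 and WRKY33 were called higher by edgeR and none lower, though CYP82C4 was called lower by DESeq2. There 37.2% of all loci were called by edgeR and 19.5% were higher. CYP71A13, counted in both comparisons, passed the filter on low counts only through its levels in amiR-TOR, so its difference was bound up with being tested. Median log2 fold changes over the 10 genes were 2.25 on NPA with estradiol and 1.53 on IAA with estradiol, beside 0.05 and -0.000223 over all loci. With the 5 libraries of high unmapped share left out, an alternative chosen after the data were seen, 5 genes were called between the genotypes on IAA, 8 on NPA with estradiol and 3 on IAA with estradiol. The 8 calls on NPA with estradiol held in every alternative run, while 2 genes were called on IAA with estradiol without Col-0 replicate 1.

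In the libraries that the choice of genes rested on, amiR-TOR on NPA without estradiol, all 10 genes had positive log2 fold changes over Col-0. The median was 2.02 over the 10 genes and -0.03 over all loci. Of all loci 22.1% were called there in either direction, while the members were not tested. CYP71A12 had 289, 369 and 321 CPM in amiR-TOR, against 0.597, 1.75 and 1.155 CPM in Col-0. CYP71A13 had 18.1, 9.63 and 2.63 CPM in amiR-TOR and 0 in each Col-0 library, at least 215.4-fold higher by the same floor. CYP82C2 had 71.3, 47.8 and 30.8 CPM in amiR-TOR, against 0.229, 0.224 and 0.11 CPM in Col-0. These values describe why the genes were chosen.

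Moving roots to IAA went with lower levels of the entry enzymes in both genotypes. With estradiol in amiR-TOR, CYP79B2, CYP79B3 and CYP82C4 were called lower on IAA than on NPA by edgeR and no member was higher, where 39.2% of all loci were called and 18.6% were lower. With estradiol in Col-0, PAD3, CYP79B2, CYP79B3 and CYP82C4 were called lower and MYB51 higher, where 59.3% of all loci were called and 29.3% were lower. The members' 5 of 10 is thus near the share of all loci, and 2 were called with the 5 libraries of high unmapped share left out. In amiR-TOR 6 were called without replicate 2 on NPA with estradiol, and 6 without replicate 2 on IAA with estradiol. Median log2 fold changes were -1.76 over the members and 0.01 over all loci in amiR-TOR, and 0.90 and -0.02 in Col-0. WRKY33 in amiR-TOR was called higher when the fit held just the groups compared (0.60, adjusted p = 0.00114).

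Root and shoot markers were called in the same comparisons, where 18.6% of all loci were called lower in amiR-TOR and 29.3% in Col-0. In amiR-TOR 2 of 8 root markers were called lower and 1 higher (median log2 fold change -0.53), and 2 of 6 shoot markers were lower (-2.32). In Col-0 6 of 8 root markers were called lower and 1 higher (-1.23), and 3 of 6 shoot markers were lower (-2.20). Summed root marker levels were 206.8 to 263 CPM on IAA with estradiol, against 305 to 323 CPM on NPA with estradiol in amiR-TOR, and 98.7 to 115.8 CPM against 161.8 to 237 CPM in Col-0. With 1 library left out, the amiR-TOR shoot marker count was 0 without replicate 1 and 5 without replicate 2 on NPA, and 1 without replicate 1 or 2 on IAA, and the root marker count was 5 without replicate 3 on IAA. The part of these markers in the result was not tested.

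CYP79B3 had 28.7, 50.7 and 12.0 CPM in amiR-TOR on IAA with estradiol, against 265, 75.5 and 236 CPM on NPA with estradiol (log2 fold change -2.66 ± 0.51, adjusted p = 0.00047). In Col-0 it had 39.5, 57.8 and 48.9 CPM on IAA with estradiol, against 271, 265 and 329 CPM on NPA with estradiol (-2.57 ± 0.51, adjusted p = 0.000321). The groups did not overlap in either genotype. CYP79B2 behaved alike in direction, with -2.11 ± 0.57 in amiR-TOR (adjusted p = 0.00647) and -1.89 ± 0.56 in Col-0 (adjusted p = 0.00811). Its Col-0 call was lost with the 5 libraries of high unmapped share left out (-2.21, adjusted p = 0.0965).

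CYP82C4 on IAA had log2 fold changes of -1.13 ± 0.38 in amiR-TOR (adjusted p = 0.0229) and -1.54 ± 0.36 in Col-0 (adjusted p = 0.00109). The amiR-TOR call was lost without replicate 1 on NPA with estradiol (-0.74, adjusted p = 0.156), or without replicate 1 (-0.89, 0.103) or 3 (-1.09, 0.0657) on IAA with estradiol. It was also lost with just the groups compared (-1.16, 0.0763) and with the libraries of high unmapped share left out (-0.90, 0.112). PAD3 in Col-0 had a log2 fold change of -1.73 ± 0.64 (adjusted p = 0.0285). Its call was lost without replicate 2 (0.0545) or 3 (0.0537) on NPA with estradiol and without any 1 replicate on IAA with estradiol (0.0794, 0.0549 and 0.0709 for replicates 1, 2 and 3), and with the libraries of high unmapped share left out (0.213). MYB51 in Col-0 had 1.32 ± 0.39 (adjusted p = 0.0078), and 0.81 (adjusted p = 0.286) with the 5 libraries of high unmapped share left out.

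CYP71A12, CYP71A13, CYP82C2 and FOX1 were not called by edgeR for IAA over NPA with estradiol in either genotype. DESeq2 called CYP71A12 higher in Col-0 (2.505, adjusted p = 0.038). With edgeR, CYP71A12 was called there without Col-0 replicate 3 on NPA (5.17, 0.0081) or replicate 1 on IAA (2.99, 0.0203), and FOX1 without that library on NPA (3.80, 0.0219). In amiR-TOR, CYP71A13 and CYP82C2 were called lower without replicate 2 on NPA (-2.79, 0.0325 and -2.45, 0.034) or replicate 2 on IAA (-3.76, 0.0199 and -3.09, 0.0205). Their log2 fold changes were negative in amiR-TOR, between -2.28 and -1.45, and positive in Col-0, between 1.28 and 2.42. With the 5 libraries of high unmapped share left out, which leaves a single Col-0 library on IAA with estradiol, the Col-0 values turned negative in all of them, as given under the processing alternatives. The test of the difference between the genotypes in the IAA effect called none of the 10 genes, where 12.0% of all loci were called. CYP71A12, CYP82C2 and MYB51 had an unadjusted p under 0.05 there, and DESeq2 called 2 genes. The edgeR count was 3 without Col-0 replicate 3 on NPA with estradiol and 1 without Col-0 replicate 1 on IAA with estradiol.

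For estradiol over solvent on IAA in amiR-TOR, CYP79B3 and CYP82C4 were called lower by edgeR and no other member was called. WRKY33 was called higher by DESeq2 (0.70, adjusted p = 0.0476) and by edgeR without solvent replicate 2 (1.23, 0.00328). Of all loci, 18.9% were called in this comparison and 9.90% were called lower. CYP79B3 had 28.7, 50.7 and 12.0 CPM with estradiol, against 54.4, 161.6 and 57.4 CPM with solvent (log2 fold change -1.57 ± 0.50, adjusted p = 0.0367). CYP82C4 had 1.84, 4.25 and 2.82 CPM with estradiol, against 14.4, 7.22 and 5.63 CPM with solvent (-1.62 ± 0.38, adjusted p = 0.00581). The CYP79B3 call was lost without solvent replicate 2 (-0.88, adjusted p = 0.226) or estradiol replicates 1 (-1.52, 0.0882) or 3 (-1.18, 0.146), and the CYP82C4 call without solvent replicate 1 (-1.08, 0.07). CYP79B3 had -1.52 (adjusted p = 0.125) when the 5 libraries of high unmapped share were left out. Median log2 fold changes were -0.37 over the members and -0.01 over all loci. In the same comparison 5 of 6 shoot markers were called lower, with a median log2 fold change of -3.90, and their summed level was 8.35 to 14.1 CPM with estradiol, against 38.7 to 85.6 CPM with solvent. Of the 8 root markers 1 was called higher and none lower. The shoot marker count was 1 without solvent replicate 3 or estradiol replicate 2, 2 without estradiol replicate 3 and 3 without estradiol replicate 1, and the root marker count was 0 without solvent replicate 1 or 3 or estradiol replicate 1. The part of these markers in the result was not tested.

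For estradiol over solvent on IAA in Col-0, none of the 10 genes was called by edgeR, where 1.02% of all loci were called. CYP71A12, CYP82C2 and FOX1 had an unadjusted p under 0.05, and DESeq2 called 3 genes. CYP71A12 had 1.31, 74.8 and 86.4 CPM with estradiol, against 0.829, 0.857 and 0.651 CPM with solvent, a log2 fold change of 6.15 ± 1.61 (adjusted p = 0.0847). The spread lay within the estradiol group, whose replicate 1 was close to the solvent libraries, and 2 genes were called without that replicate.

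In the test of whether the estradiol effect on IAA differed between the genotypes, CYP71A12 was the 1 member called, where 9.17% of all loci were called. Its interaction, the log2 estradiol effect in amiR-TOR minus that in Col-0, was -6.51 ± 1.95 (adjusted p = 0.0464). It was lost in 10 of 12 fits that leave out 1 library, with values between -6.91 and -5.44 in those 10. The lowest adjusted p of these, 0.0509, came without amiR-TOR replicate 1 on IAA and the highest, 0.111, without Col-0 replicate 3 on IAA. The interaction was -1.11 (adjusted p = 0.891) when the 5 libraries of high unmapped share were left out.

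**Figure D3:**
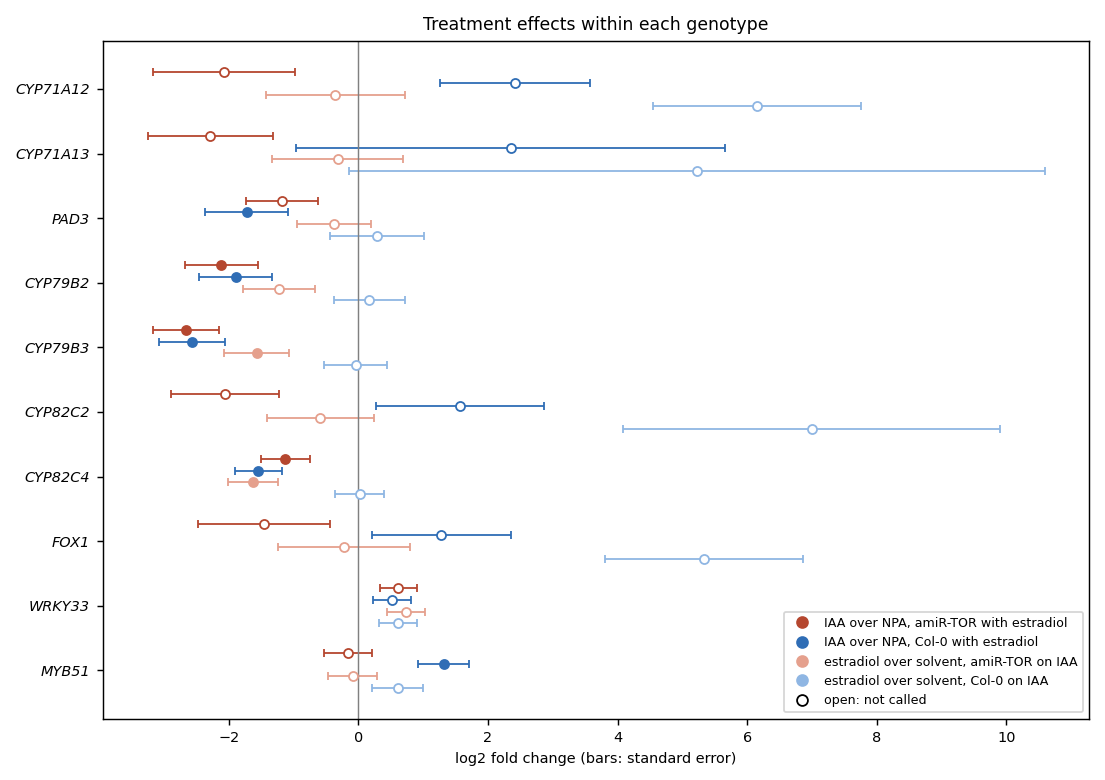
Log2 fold changes with standard errors for IAA over NPA with estradiol, and for estradiol over solvent on IAA, in amiR-TOR and in Col-0. Filled points were called. CYP79B3 on IAA lay at -2.66 in amiR-TOR and -2.57 in Col-0. The bars come from 1 fit over all 24 libraries and do not measure the spread within Col-0 alone. The widest, of CYP71A13 and CYP82C2 in Col-0, rest on groups at or near 0 counts.

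The comparisons that share the uninduced NPA libraries are described only. For estradiol over solvent on NPA, the members' median log2 fold change was 0.24 in amiR-TOR and 0.66 in Col-0. For IAA over NPA without estradiol it was -0.57 in amiR-TOR and -1.17 in Col-0. Within that IAA comparison, CYP79B3 had log2 fold changes of -2.05 in amiR-TOR and -2.29 in Col-0.

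Within groups, the members tended to be high or low in the same library. Replicate 2 was the highest of 3 for 9 of 10 genes in amiR-TOR on IAA and for 8 of 10 in amiR-TOR on IAA with estradiol, and the lowest for 9 of 10 in amiR-TOR on NPA with estradiol. Replicate 1 was the lowest for 9 of 10 in Col-0 on IAA with estradiol, and replicate 3 the highest for 8 of 10 in Col-0 on NPA with estradiol. Replicate 2 of amiR-TOR on IAA was also the library with the fewest gene counts, 8589833.

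The genes around the 10 members were examined through lists of the pathway. These lists were chosen with earlier results of these data known, so a share above that of all loci is not independent of the choice. On IAA without estradiol, 6 of 7 tryptophan synthesis genes were called higher in amiR-TOR than in Col-0 and none lower. Their median log2 fold change was 1.41, where 8.52% of all loci were called higher. Among these genes TRP1, which acts early in the pathway, had 2.33 ± 0.49 (adjusted p = 0.00484). The 6 calls became 3 with no filter on low counts or with just the groups compared, and 1 with the 5 libraries of high unmapped share left out. They became 1 without amiR-TOR replicate 2 or Col-0 replicate 1 or 3, and 2 without Col-0 replicate 2. On NPA with estradiol 5 of 7 were called higher, which became 3 with just the groups compared or without amiR-TOR replicate 3 or Col-0 replicate 1 or 2, and on IAA with estradiol none was higher and 1 lower. Of all loci, 17.6% were called higher on NPA with estradiol and 19.5% on IAA with estradiol.

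Of the neighbours of FOX1 and CYP82C2 in the genome, 4 of 5 were called higher in amiR-TOR on IAA, 4 on NPA with estradiol and 2 on IAA with estradiol, with no gene lower. Of all loci, 8.52%, 17.6% and 19.5% were called higher in these comparisons. AT1G26390, close to FOX1, had a log2 fold change of 5.17 ± 1.55 on IAA (adjusted p = 0.0386), and AT1G26410 had 4.98 ± 1.30 (adjusted p = 0.0193). Without amiR-TOR replicate 2, the changes were 4.23 (adjusted p = 0.15) for AT1G26390 and 4.07 (0.0799) for AT1G26410. Both were also lost without Col-0 replicate 1 (4.78, 0.113 for AT1G26390 and 4.84, 0.0721 for AT1G26410) or 3 (4.33, 0.145 and 4.88, 0.0787), and AT1G26390 without amiR-TOR replicate 3 (5.49, 0.0501). Leaving out the libraries of high unmapped share left 2 of 5 called on IAA. The 2 calls on IAA with estradiol became 0 by DESeq2 or with just the groups compared, and 1 with no filter on low counts or with those libraries left out. Without 1 library they ranged from 0 to 3, with 0 called without amiR-TOR replicate 1 or 2 or Col-0 replicate 1 or 3, and 1 without Col-0 replicate 2. On IAA the 4 became 1 without amiR-TOR replicate 2 or Col-0 replicate 1 or 3.

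Other camalexin and nitrile genes were called higher in 3 of 7 tested on IAA, with GSTF6, a glutathione transferase tied to camalexin synthesis, at 4.46 ± 0.88 (adjusted p = 0.00335). GSTF6 and GSTF7 are near-identical copies, so their split is uncertain. Core indole glucosinolate genes were called higher in 2 of 8, among them SOT16, a sulfotransferase of the last step, at 1.56 ± 0.27 (adjusted p = 0.000755). Of the modification and breakdown genes 5 of 10 were called higher, with CYP81F2, which hydroxylates indole glucosinolates, at 4.25 ± 0.90 (adjusted p = 0.00562). Nitrilases were called higher in 2 of 4. Other regulators were called higher in 4 of 11, with MYB122, a relative of MYB51, at 4.55 ± 0.68 (adjusted p = 0.000286) and NAC042, a regulator of camalexin genes, at 4.36 ± 0.98 (adjusted p = 0.00814). No gene of these lists was called lower on IAA, where 8.52% of all loci were called higher. Without amiR-TOR replicate 2 or Col-0 replicate 3, the count was 1 for the camalexin and nitrile genes and 1 for the core glucosinolate genes, which had 4 without amiR-TOR replicate 1. For the nitrilases it was 0 without amiR-TOR replicate 1 or 2 or Col-0 replicate 3, and 1 without Col-0 replicate 1 or 2.

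The same lists held genes called lower as well on NPA with estradiol. There 3 of 7 camalexin and nitrile genes, 2 of 8 core glucosinolate genes and none of 4 nitrilases were called higher, with none lower, where 17.6% of all loci were higher and 15.3% lower. Of the modification and breakdown genes 6 of 10 were higher and 3 lower, and of the regulators 4 of 11 were higher and 3 lower. With a term marking libraries with many unmapped reads, 5 camalexin and nitrile genes were called on NPA with estradiol, 3 of them higher and the others lower. The same counts came with just the groups compared. Given IAA with estradiol, where 19.5% of all loci were higher, 3 of 7 camalexin and nitrile genes, 2 of 8 core genes, 4 of 10 modification and breakdown genes and 2 of 4 nitrilases were higher, with none lower, and 5 of 11 regulators were higher and 1 lower. The modification and breakdown count became 2 without Col-0 replicate 1. With the libraries of high unmapped share left out, 1 core gene, 1 nitrilase and 3 regulators were called on IAA with estradiol.

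For IAA over NPA with estradiol, the core glucosinolate genes moved as CYP79B2 and CYP79B3 did. All 8 were called lower in amiR-TOR and 7 of 8 in Col-0, with none higher, and median log2 fold changes of -1.26 and -1.02, where 18.6% of all loci were called lower in amiR-TOR and 29.3% in Col-0. MYB34, a regulator of indole glucosinolate genes, fell by 2.61 ± 0.26 on the log2 scale on IAA in Col-0 (adjusted p = 4.32e-08), while MYB51 rose there. Of the tryptophan genes 4 of 7 were called lower and 1 higher in amiR-TOR, and 1 of 7 higher and none lower in Col-0. The test of the difference between the genotypes in the IAA effect called 1 of the 7, where 12.0% of all loci were called. The amiR-TOR calls, 5 in all, became 1 without replicate 1 or 3 on NPA or replicate 3 on IAA, 2 without replicate 1 on IAA, 3 with no filter on low counts, 1 with just the groups compared and 2 with the libraries of high unmapped share left out.

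**Figure D4:**
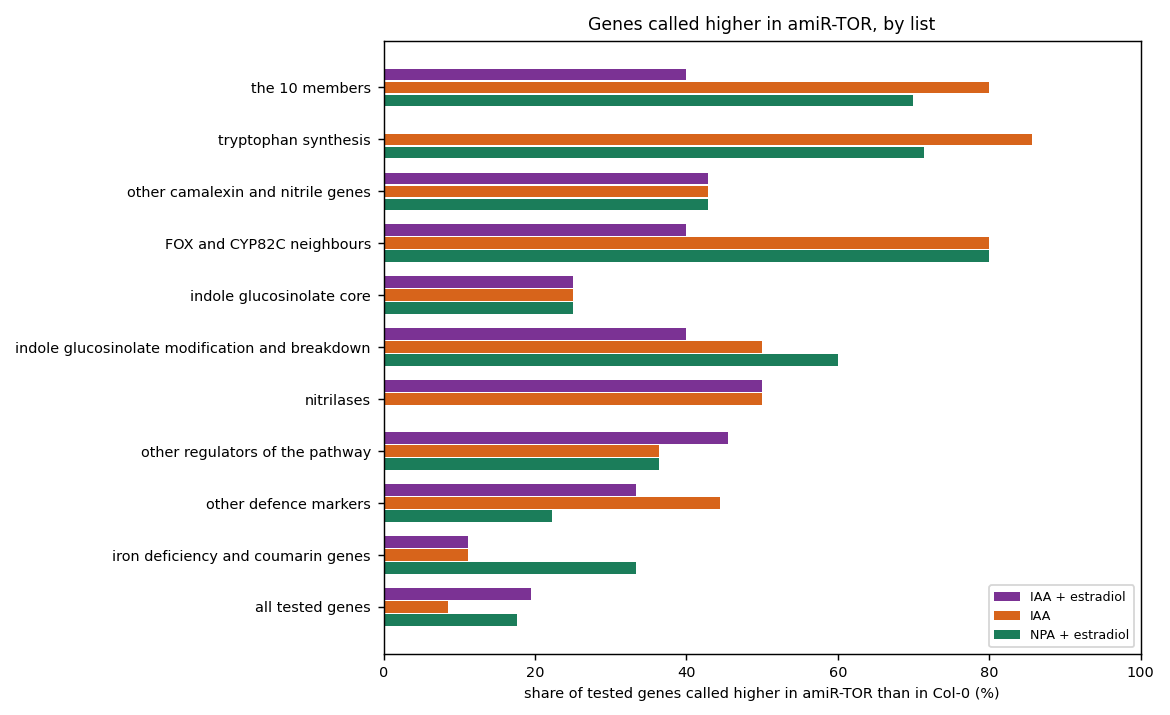
Share of the tested genes of each list called higher in amiR-TOR than in Col-0 on IAA with estradiol, on IAA and on NPA with estradiol, beside all tested loci in the lowest row. Each bar is a count over a short list, such as 6 of 7 tryptophan genes on IAA, where 8.52% of all loci were called higher. The lists were chosen with earlier results of these data known.

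Across the 24 libraries, genes most like the members were found by Pearson correlation of log2(CPM + 1) over 19416 loci that averaged at least 1 CPM. Libraries of the 2 genotypes differ widely in these values, so the correlations are descriptions with no test. CYP71A12 was closest to GSTF6 (r = 0.99), AT5G44990 (0.982), FOX1 (0.977), AT5G38900 (0.977) and RK3 (0.974). FOX1 was closest to CYP81F2 (0.992), GSTF6 (0.992), GSTF7 (0.988), AT1G26410 (0.985) and AT5G44990 (0.984). PAD3 had a different set of nearest genes, MYB122 (0.947), WIH3 (0.933), SOT16 (0.911), AT1G02360 (0.905) and MSRB8 (0.902). Between CYP71A12 and the other members r was 0.966 for CYP82C2, 0.911 for MYB51, 0.743 for PAD3, 0.523 for CYP79B2, 0.116 for CYP79B3 and -0.122 for CYP82C4.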

How the data were processed

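RNA sequencing read counts per gene were analysed for 24 Arabidopsis root libraries, 8 groups of 3, grouped by their labels. The authors deposited raw counts per locus for each library, unstranded and for each strand. The submitters' processing notes name STAR 2.5.2b, DESeq2 and the build TAIR10, without saying which step used which. The strand holding most reads was used, and multimapping and ambiguous reads were not, so near-identical copies may be undercounted. The tables are untouched counts, and CPM values were computed here with TMM-scaled library sizes.

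Counts were tested with edgeR 4.0.16 in R 4.3.3: filterByExpr by group (21290 of 32833 loci kept, with all 10 members), TMM, and 1 robust quasi-likelihood fit over all 24 libraries, with Benjamini-Hochberg adjustment per comparison. In total 9 comparisons were tested and 5 described. A locus was called at an adjusted p under 0.05. Standard errors are the size of the log2 change divided by the square root of F. Ratios for groups of 1 to 3 counts carry exact 95% intervals, and a floor of 3 counts was used at 0. Intervals and floors cover counting error only. The fit was tested on simulated data.

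The members, lists and tests were chosen with earlier results of these data known. All 10 members are named, TOR as the knock-down check, up to 2 called genes per list that averaged at least 1 CPM, and the 5 genes most like each of CYP71A12, PAD3 and FOX1. Alternatives were RLE size factors, no filter on low counts, DESeq2 1.42.0, unstranded counts, only the groups compared, a replicate block, a covariate for libraries with over 20% unmapped reads, each replicate left out and, chosen after the data were seen, those libraries left out. Equal replicate numbers did not pair the libraries: in no comparison was every correlation of same-numbered deviations over 0.1. Sequences and names come from RefSeq TAIR10.1, matched by locus, read with Biopython 1.88 under Python 3.11.15.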

Additional observations from a re-analysis of the deposited data

Results flagged for a closer look

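CYP71A12 was singled out because its response to estradiol on IAA differed between the genotypes by a test of the difference itself. The interaction was -6.511 on the log2 scale, with an adjusted p of 0.0464 by edgeR's quasi-likelihood test. It was the 1 call among 10 members, near the 9.17% of all loci called. The call was lost in 10 of 12 fits that leave out 1 library. It was also lost with no filter on low counts (adjusted p = 0.0631), with a term marking libraries with many unmapped reads (0.0802) and with only the groups compared (0.123). With estradiol and with solvent CYP71A12 had 119.7, 277 and 32.8 CPM against 70.3, 381 and 104 CPM in amiR-TOR, and 1.31, 74.8 and 86.4 CPM against 0.829, 0.857 and 0.651 CPM in Col-0. Replicates 2 and 3 of Col-0 with estradiol, which carry the rise, had 35.2% and 31.7% unmapped reads, and their part in the result was not tested beyond leaving them out. With the 5 libraries of high unmapped share left out, the interaction was not called.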

How the results depend on the processing

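All 9 tested comparisons kept their counts of called members within 1.5 times under RLE size factors, unstranded counts and a covariate marking libraries with many unmapped reads, though with that covariate the 1 member called in the genotype by estradiol interaction was CYP82C4 (-1.73, adjusted p = 0.0312) in place of CYP71A12. Without the filter on low counts, 1 member was called for estradiol in amiR-TOR on IAA and 0 for the genotype by estradiol interaction on IAA. When the fit held just the groups compared, these counts were 1 and 0, and 5 members were called between the genotypes on IAA. DESeq2 called 3 members for estradiol in Col-0 on IAA, 4 for the genotype by estradiol interaction and 2 for the genotype by auxin interaction with estradiol. Equal replicate numbers did not pair the libraries, and with the replicate number as a block 0 members were called for the genotype by estradiol interaction, where 1 was called without the block, while the other counts stayed within 1.5 times. The block ended the calls of CYP79B2 between the genotypes on IAA (1.82, adjusted p = 0.051), of CYP71A13 on IAA with estradiol (4.44, 0.0536) and of the CYP71A12 interaction (-6.13, 0.0733). It added calls of WRKY33 in amiR-TOR for IAA over NPA with estradiol (0.61, 0.042) and for estradiol on IAA (0.80, 0.0217). Between the genotypes it left 3 tryptophan genes called on IAA, and 1 neighbour of FOX1 and CYP82C2 on IAA with estradiol. The causes of these shifts were not tested.

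With the 5 libraries of over 20% unmapped reads left out, the counts were 2 for IAA over NPA in Col-0 with estradiol, 1 for estradiol in amiR-TOR on IAA, 5 for the genotypes on IAA and 0 for the genotype by estradiol interaction. This leaves 1 Col-0 library on IAA with estradiol, assumed to vary like the others. Log2 values that changed sign, none of them called, were CYP71A12 -2.96, CYP71A13 -2.93, CYP82C2 -7.46, FOX1 -4.32 and WRKY33 -0.11 for IAA over NPA in Col-0 with estradiol, and CYP82C2 -2.26 and FOX1 -0.20 for estradiol in Col-0 on IAA. In the genotype by estradiol interaction CYP82C2 became 1.79, and in the genotype by auxin interaction CYP71A12 became 0.99, CYP71A13 0.91, CYP82C2 5.51 and FOX1 2.68. Values of CYP71A13 and CYP82C2 there rest on groups at or near 0 counts and depend on the prior count. The CYP71A12 interaction with estradiol was -1.11 (adjusted p = 0.891), and over its other alternatives apart from leaving out 1 library its adjusted p lay between 0.0011 and 0.123.

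Leaving out 1 library at a time, the members called ranged from 4 to 6 for IAA over NPA in Col-0 with estradiol, 2 to 6 in amiR-TOR with estradiol, 0 to 2 for estradiol in Col-0 on IAA, 1 to 2 in amiR-TOR on IAA, 5 to 8 for the genotypes on IAA, 8 to 8 on NPA with estradiol, 2 to 5 on IAA with estradiol, 0 to 2 for the genotype by estradiol interaction and 0 to 3 for the genotype by auxin interaction. Counting noise limits CYP71A13 in Col-0, where whole groups held 0 to 12 counts, and CYP82C2 in Col-0 on IAA, with 1 count. In the other Col-0 groups CYP82C2 had 13 counts on NPA, 84 on NPA with estradiol and 155 on IAA with estradiol.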

Other observations

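Among genes outside the pathway, PROPEP3, the precursor of a defence peptide, was called higher in amiR-TOR than in Col-0 on IAA, with a log2 fold change of 3.61 ± 0.75 (edgeR, adjusted p = 0.00466), on NPA with estradiol (2.90 ± 0.65, adjusted p = 0.00247) and on IAA with estradiol (1.85 ± 0.64, adjusted p = 0.0309). Of 13 listed defence markers 9 were tested. Of these, 4 were called higher on IAA, 2 higher and 1 lower on NPA with estradiol, and 3 higher and 1 lower on IAA with estradiol. Over all loci 8.52%, 17.6% and 19.5% were called higher in these comparisons, and 15.3% lower on NPA with estradiol. With just the groups compared, 5 defence markers were called on NPA with estradiol, 4 of them higher, and 2 on IAA with estradiol, 1 of them higher. Of the 9 tested iron deficiency and coumarin genes, the context of CYP82C4, 1 was called higher on IAA, 3 on NPA with estradiol and 1 on IAA with estradiol, with none lower. Root markers were called higher in amiR-TOR in 3 of 8 on IAA, 3 of 8 on NPA with estradiol and 6 of 8 on IAA with estradiol, with none lower, where 8.52%, 17.6% and 19.5% of all loci were called higher. The 3 on NPA with estradiol ranged from 0 to 2 with 1 library left out, with 0 called without Col-0 replicate 1 and 1 without amiR-TOR replicate 3 or Col-0 replicate 3. Of 6 shoot markers, 1 was called higher on IAA, 1 lower on NPA with estradiol and 1 lower on IAA with estradiol. The 4 defence markers on IAA became 2 without amiR-TOR replicate 2 or Col-0 replicate 1 and 1 without Col-0 replicate 3. The 1 iron gene on IAA was not called without amiR-TOR replicate 2 or Col-0 replicate 1 or 3, and the 1 shoot marker not without amiR-TOR replicate 1 or 3 or Col-0 replicate 1 or 3. The shoot markers called on NPA with estradiol were 3 without amiR-TOR replicate 1.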
